A study of Mus musculus with 7 samples.

Results

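The genes described here are 10 genes of the contractile cytoskeleton and of the YAP response: *Acta2*, *Tagln*, *Cnn1*, *Cnn2*, *Myl9*, *Tpm1*, *Tpm2*, *Ctgf*, *Cyr61* and *Ankrd1*. They were chosen by symbol, and all 10 were found among the 23583 gene entries that the untreated and the treated RNA tables share. The cells were primary dermal fibroblasts of female FVB/N mice, grown for 8 days and either left untreated or given thapsigargin for 3 h. Thapsigargin stops calcium from being pumped into the endoplasmic reticulum (ER), and the ER stress that follows raises the transcription factor ATF4. Of the 7 libraries, 2 were of RNA, 1 per condition. Another 3 were chromatin immunoprecipitations (ChIP) of the bZIP factor CEBPB, untreated and treated, and of ATF4, treated. The last 2 were bisulfite libraries, both untreated, and their CpG percentages came pooled in a single table. No genetic change is named for any group, and the number of animals behind a culture is not given in the sources used here.

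Fibroblasts that spread on a stiff surface build stress fibres, in which actin filaments slide against non-muscle and smooth muscle myosin. The genes of these fibres are switched on by serum response factor (SRF), whose MRTF cofactors are released when free actin is used up. The same tension moves YAP and TAZ into the nucleus, where they act through TEAD factors on genes such as *Ctgf*, *Cyr61* and *Ankrd1*. Smooth muscle actin, the product of *Acta2*, is the usual mark of the myofibroblast, the contractile fibroblast of wounds and scars.

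Markers of the labelled cell type were read first. Levels are in FPKM, fragments scaled to transcript length and library size, and a gene counted as expressed when it reached FPKM 1 in either library. All 10 fibroblast markers did so, but so did most markers of several other cell types given below, so this rule alone does not settle the cell type. The summed FPKM of the fibroblast markers was 16277 untreated and 4249 treated, with a log2 change of −1 or beyond in 6 of them. Set against genes of like exon structure, 2 of them were that much lower. The part of these markers in the values of the 10 genes was not tested. *Col1a1*, which encodes a collagen chain and was the most abundant fibroblast marker in untreated cells, stood at FPKM 6473 untreated and 884 treated. From the listed bounds, the libraries held 53915048 and 78944295 fragments in genes, so counting error was small for the 10 genes except *Ankrd1*. Each condition had 1 RNA library, so no difference had a replicate check, no p-value is given, and intervals cover counting error only. In bulk RNA, fewer cells of a type and less RNA per cell cannot be told apart.

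The sequences printed here, from just upstream of the starts, are examples that hold a DNA word of SRF or of TEAD factors. That of *Cnn2* holds one as well and is not printed. By strict matches alone, the words did not follow the division into contractile genes and YAP targets, since *Acta2* held the TEAD word and no strict CArG box. The *Acta2* sequence does hold ccctatatgg and ccttgtttgg, each a single letter off the strict CArG box. Such near matches were neither counted nor marked, so a lack of SRF sites cannot be read from these counts. Each line gives the 250 bases before the annotated start on the mm9 build, 5′ to 3′ on the strand of the gene. Capitals mark matches to the CArG box, bound by SRF, and to GGAATG, the core word of TEAD factors, on either strand.
Ankrd1 (chr19:36194335-36194584, − strand): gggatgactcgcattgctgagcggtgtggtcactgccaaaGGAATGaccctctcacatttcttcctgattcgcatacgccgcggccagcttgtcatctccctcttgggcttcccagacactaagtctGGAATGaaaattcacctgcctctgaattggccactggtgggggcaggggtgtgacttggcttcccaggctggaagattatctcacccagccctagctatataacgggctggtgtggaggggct
Cyr61 (chr3:145312950-145313199, − strand): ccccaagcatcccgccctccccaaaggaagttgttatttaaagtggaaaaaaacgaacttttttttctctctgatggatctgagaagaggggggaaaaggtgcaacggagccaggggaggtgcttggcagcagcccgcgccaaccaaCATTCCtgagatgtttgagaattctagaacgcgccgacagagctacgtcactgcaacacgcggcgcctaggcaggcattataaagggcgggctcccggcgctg
Tagln (chr9:45744142-45744391, − strand): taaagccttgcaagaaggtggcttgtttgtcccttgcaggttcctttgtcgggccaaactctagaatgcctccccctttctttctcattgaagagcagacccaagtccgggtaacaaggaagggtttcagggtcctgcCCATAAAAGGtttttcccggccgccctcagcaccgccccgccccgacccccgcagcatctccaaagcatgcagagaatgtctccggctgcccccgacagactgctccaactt
Myl9 (chr2:156600906-156601155, + strand): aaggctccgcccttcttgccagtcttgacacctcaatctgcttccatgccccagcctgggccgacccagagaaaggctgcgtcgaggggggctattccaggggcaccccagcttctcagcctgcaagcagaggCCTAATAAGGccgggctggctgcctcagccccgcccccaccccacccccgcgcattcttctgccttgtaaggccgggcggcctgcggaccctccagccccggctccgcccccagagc
Acta2 (chr19:34329827-34330076, − strand): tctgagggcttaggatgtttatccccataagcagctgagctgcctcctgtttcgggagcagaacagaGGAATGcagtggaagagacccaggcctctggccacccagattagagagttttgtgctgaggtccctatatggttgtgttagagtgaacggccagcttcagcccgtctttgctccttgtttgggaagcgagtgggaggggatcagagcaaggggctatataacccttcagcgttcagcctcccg

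Matches were counted for the 9 genes other than *Ctgf* in 300-base windows, from 250 bases before to 50 after the annotated start. *Ankrd1* had 2 matches to GGAATG, at −210 to −205 and −123 to −118, and *Cyr61* and *Acta2* had 1 each. GGAATG was thus found in 3 of the 9 genes described here, against 13.4% of 22367 promoters of coding genes. The strict CArG box was found in *Tagln*, at −112 to −103 and again at 11 to 20, in *Cnn2* at −40 to −31 and in *Myl9* at −117 to −108. That made 3 of the 9 genes, against 1.47% of all promoters. No window held both words, and the windows of *Cnn1*, *Tpm1* and *Tpm2* held neither. None of the 9 windows held the other words searched, the C/EBP words TTGCGCAA and TTGCNNAA, the C/EBP and ATF words TGATGCAA, TGANGCAA and CGATGCAA, the CRE word TGACGTCA or the AP-1 word TGANTCA. Among all promoters these words are found in 0.206%, 10.3%, 0.827%, 3.44%, 0.0939%, 2.32% and 6.93%, in the same order. TTGCNNAA includes TTGCGCAA, and TGANGCAA includes TGATGCAA. A match is a description of the letters and shows no binding.

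The RNA comparison asked how this set stood after 3 h of ER stress. Among the YAP targets, *Ctgf* and *Ankrd1* were higher in the treated library by more than the fold used as threshold. Among the contractile genes, *Acta2* and *Tpm2* were lower past that threshold on the authors' scaling, and none was when set against genes of like structure. The other 6 genes did not pass it, with log2 changes from −0.80 in *Myl9* to 0.56 in *Tagln*. The threshold was a difference of 1 in log2(FPKM + 1), a scale that understates changes of low genes. By this rule 2 of the 10 genes were higher, against 6.02% of the 12207 expressed entries, and 2 were lower, against 28.2%, a share below that of the expressed entries. The median log2 change was −0.18 over the 10 genes and −0.52 over all expressed entries.

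**Figure D1:**
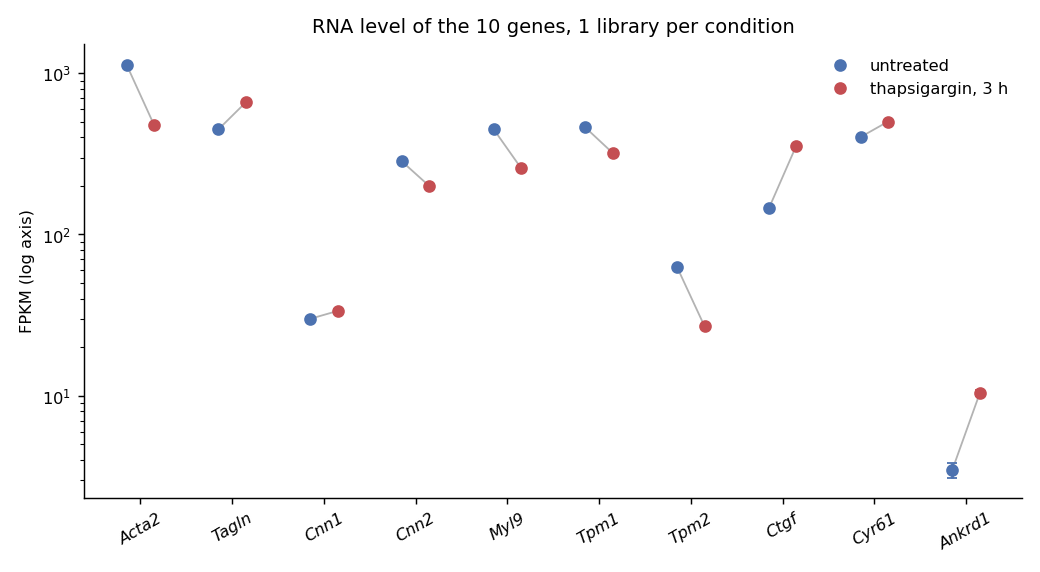
RNA level (FPKM, log axis) of the 10 genes in the untreated and the treated library, 1 library each, with the authors' confidence bounds as bars where these exceed the points. Acta2 falls from the first place, while Tagln, Cyr61, Ctgf and Ankrd1 stand higher after thapsigargin and Cnn1 nearly level.

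*Acta2* (chr19:34315580-34329826), which encodes smooth muscle actin, stood at FPKM 1124 (bounds 1118 to 1131) untreated and 475 (472 to 478) treated. It was the most abundant of the set in untreated cells, 19th of all entries, and 52nd after treatment. The ratio of untreated over treated was 2.37 (95% interval 2.35 to 2.39), a log2 change of −1.24. *Myl9* (chr2:156601199-156607393), which encodes the regulatory light chain of smooth muscle myosin, stood at 449 (444 to 455) and 258 (255 to 260), a log2 change of −0.80 that did not reach the threshold.

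Of the tropomyosins, coiled coils that lie along the actin filament, *Tpm2* passed the threshold on the authors' scaling and *Tpm1* did not. *Tpm2* (chr4:43527583-43536260) stood at FPKM 62.7 (61.3 to 64.1) and 26.9 (26.3 to 27.5), 2.33 times lower after treatment (2.26 to 2.41), a log2 change of −1.19. *Tpm1* (chr9:66870399-66897020), more abundant in both libraries, stood at 461 (456 to 466) and 319 (317 to 322), a log2 change of −0.53. That is almost the median of all expressed entries.

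The calponin family, actin-binding proteins that damp myosin activity or bundle filaments, did not move as one. *Tagln* (chr9:45737710-45744141), which encodes transgelin or SM22, stood at FPKM 449 (445 to 453) untreated and 662 (658 to 665) treated. Its ratio of treated over untreated was 1.47 (1.46 to 1.49), a log2 change of 0.56, and it was the most abundant of the 10 genes after treatment. *Cnn1* (chr9:21903696-21913665), the calponin of smooth muscle, stood at 29.997 (29.01 to 30.98) and 33.6 (32.9 to 34.3), a log2 change of 0.16. *Cnn2* (chr10:79451344-79458145), the calponin of non-muscle cells, stood at 284 (281 to 287) and 199 (197 to 201), a log2 change of −0.51. None of the 3 reached the threshold.

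Of the matricellular YAP targets, *Ctgf* passed the threshold and *Cyr61* did not. *Ctgf* (chr10:24315247-24318488), which encodes the secreted factor CCN2, stood at FPKM 145 (143 to 147) untreated and 356 (354 to 358) treated. Its ratio was 2.46 (2.42 to 2.49) and its log2 change 1.29. The antisense gene Gm15270 covers 22.9% of the exonic bases of *Ctgf*, and the strand used in counting is not given in the sources used here, so reads of the pair cannot be told apart. *Cyr61* (chr3:145309934-145312949), which encodes CCN1, stood at 402 (398 to 406) and 501 (499 to 504), a ratio of 1.25 (1.23 to 1.26) and a log2 change of 0.32.

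*Ankrd1* (chr19:36186454-36194334), which encodes an ankyrin repeat protein of the muscle sarcomere and nucleus, was the least abundant of the set in both libraries. It stood at FPKM 3.47 (3.11 to 3.82), from 378 implied fragments, and at 10.4 (9.95 to 10.8), from 2357. The ratio was 2.99 (2.68 to 3.34) and the log2 change 1.35, the highest of the 10. Its place among all entries moved from 9553rd to 4506th.

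The order of levels changed between the libraries. In untreated cells it ran *Acta2*, *Tpm1*, *Myl9*, *Tagln*, *Cyr61*, *Cnn2*, *Ctgf*, *Tpm2*, *Cnn1* and *Ankrd1*. *Myl9* and *Tagln* were the only neighbours with overlapping bounds there. In the treated library it ran *Tagln*, *Cyr61*, *Acta2*, *Ctgf*, *Tpm1*, *Myl9*, *Cnn2*, *Cnn1*, *Tpm2* and *Ankrd1*, and the bounds of no neighbours overlapped. Neither table marked a failed estimate for any of the 10. Of 100-bp windows of their transcripts, 1 of 48 of *Cnn2* and none of the other 9 genes had a near-identical copy elsewhere in the genome, so reads shared with copies touch these values little. *Pcsk7* overlaps 4.10% of the exonic bases of *Tagln*.

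Across all genes, the change went with gene structure: Spearman's rho between log2 change and exon junctions per kb was −0.419 over 8746 genes, given as a description, since the genes share both libraries. The 10 genes span 1.66 junctions per kb in *Ctgf* to 5.21 in *Tpm1*. Each was therefore also set against the median change of genes with like junction density, which gives a junction-adjusted log2 change. On that scale *Ankrd1* stood at 2.11 and *Ctgf* at 1.49, so 2 of the 10 were still higher, against 12.0% of 11754 expressed entries. None was lower by 1 or more, against 10.0%. *Acta2* stood at −0.53, *Tpm2* at −0.45 and *Myl9* at −0.41. *Tagln* stood at 0.77, *Cyr61* at 0.58 and *Cnn1* at 0.37. *Cnn2* stood at 0.01 and *Tpm1* at 0.36, so their sign turned. The part of junction density in these differences was not tested.

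**Figure D2:**
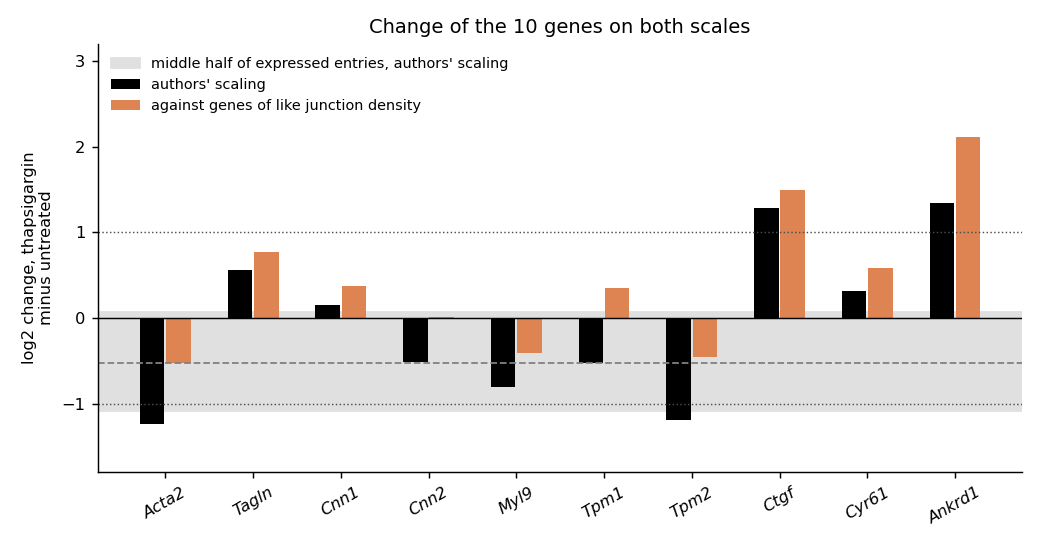
Log2 change of FPKM + 1, thapsigargin minus untreated, for the 10 genes on the authors' scaling (black) and against genes of like junction density (orange). Dotted lines mark 1 and −1, the dashed line the median of all expressed entries at −0.52 and the band their middle part, from −1.09 to 0.07. Ctgf and Ankrd1 stay above 1 on both scales, while Acta2 and Tpm2 pass −1 on the authors' scaling only.

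Other genes of the same machinery gave the surroundings of these values. All list counts are to be read beside the shares of expressed entries, 6.02% higher and 28.2% lower, or 12.0% and 10.0% after junction adjustment. Of 24 other contractile apparatus genes, all expressed, 1 was higher and 7 were lower, with a median log2 change of −0.54, or 1 higher and 1 lower of 23 and a median of 0.24 after junction adjustment. *Actb*, which encodes cytoplasmic beta-actin and was the most abundant, stood at FPKM 1592 and 1275. *Ppp1r12a*, the targeting subunit of myosin phosphatase, had a log2 change of −2.02 and *Ppp1r14a*, an inhibitor of that phosphatase, of −1.71, or −0.40 and −0.76 after adjustment. *Actg1*, gamma-actin, was listed at 759 and 31.8, but 97.4% of its windows have copies elsewhere in the genome, so its value is uncertain. It was the only gene of this list that was lower after adjustment. Copies were found for 32.4% of the windows of *Actb*.

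Of 20 adhesion and actin crosslinking genes that SRF is known to control, 19 were expressed, 1 was higher and 7 were lower, with a median of −0.52, or 0.23 after adjustment with 4 higher and 1 lower. *Filip1l*, which encodes a filamin-interacting protein, stood at FPKM 24.4 and 167, a log2 change of 2.72 that was 2.70 after adjustment. *Palld*, the actin bundling protein palladin, had −2.95 (adjusted −2.26) and *Flna*, filamin A, −1.74 (adjusted −0.79). *Itgb1*, an integrin chain and the most abundant of this list in untreated cells, stood at 304 and 219. Of SRF and its cofactors, 6 of 7 were expressed and none differed by 1 or more on either scale, with *Mkl1*, which encodes MRTF-A, at FPKM 17.02 and 22.02, *Mkl2* at 4.65 and 2.63 and *Elk4* at 3.54 and 2.003. *Myocd*, the smooth muscle cofactor of SRF, was at FPKM 0.314 and 0.343, and is named here after its values were seen.

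YAP targets outside the set did not as a group stand higher with *Ctgf* and *Ankrd1*. Of 24 reported targets, 23 were found and expressed, 2 were higher and 6 lower, with a median of −0.43, or 3 higher, 1 lower and −0.14 after adjustment. On the authors' scaling these counts were close to the shares of all expressed entries, 6.02% higher and 28.2% lower, so they do not set YAP targets apart. *Gadd45a*, a stress gene, had a log2 change of 1.84 (adjusted 2.24). *Myof*, myoferlin, had −2.19 (adjusted −0.57), *Axl*, a receptor kinase, −1.23 (adjusted −0.50) and *Fstl1*, a secreted glycoprotein and the most abundant in untreated cells, −1.10 (adjusted −0.71). Of 18 genes for Hippo kinases, YAP, TAZ and TEAD factors, all expressed, none was higher and 6 were lower, with a median of −0.71, or 3 lower and −0.18 after adjustment. *Yap1* itself stood at FPKM 45.9 and 35.9, a log2 change of −0.35, while *Tead2*, a DNA-binding partner of YAP, stood at 40.1 and 10.7 and *Mob1a*, a cofactor of the LATS kinases, at 40.1 and 8.48. *Vgll4*, a TEAD cofactor that opposes YAP, had −1.41 (adjusted −0.97).

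No expressed relative of the YAP targets was higher by 1 or more on either scale, against 6.02% and 12.0% of expressed entries. With so few genes, this does not set them apart. Of the 3 expressed CCN genes besides *Ctgf* and *Cyr61*, 1 was lower on both scales, against 28.2% and 10.0% of expressed entries. This was *Nov*, which encodes CCN3, at FPKM 575 and 235, a log2 change of −1.29 (adjusted −1.11). *Wisp1* (CCN4) had −0.65 (adjusted −0.49) and *Wisp2* (CCN5) −0.92 (adjusted −0.60). The muscle ankyrin repeat genes *Ankrd2* and *Ankrd23*, relatives of *Ankrd1*, were low in both libraries, at 1.33 and 0.378 and at 3.21 and 1.79. Their log2 changes of −0.76 and −0.59 turned to 0.78 and 0.12 after junction adjustment.

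**Figure D3:**
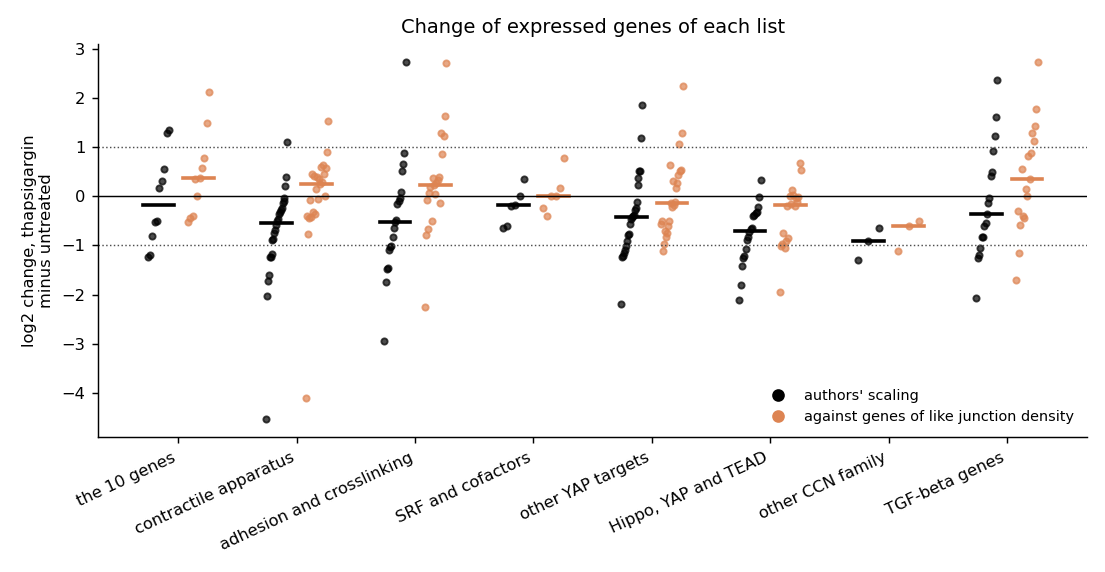
Log2 change of FPKM + 1, thapsigargin minus untreated, of every expressed gene of the set and of 7 lists around it (points), on the authors' scaling (black) and against genes of like junction density (orange), with medians as bars. The medians on the authors' scaling lie below 0 for the set, at −0.18, and for each list shown, and all 8 rise with the adjustment. Both traits are shared with all expressed entries, whose median goes from −0.52 to 0.02.

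Cells other than fibroblasts could add to the contractile genes, and their markers were measured beside them. Of 10 smooth muscle and pericyte markers, 8 were expressed, 1 was higher and 3 were lower, or 1 and 1 after junction adjustment, and their summed FPKM was 203 without and 107 with thapsigargin. *Actg2*, smooth muscle gamma-actin, was the most abundant of them, at 106 and 34.6, a log2 change of −1.59 (adjusted −0.43). Of 10 skeletal muscle markers, 9 were expressed, 4 of them lower and none higher, with sums of 129 and 72.4, and after adjustment none was lower or higher. The most abundant of these was *Acta1*, at 63.9 and 42.1, a log2 change of −0.59 (adjusted 0.15). Only *Pax7*, named after its values were seen, was under FPKM 0.1 in both libraries, and none was at 0 in both. The part of these markers in the values of *Acta2*, *Tagln* or *Cnn1* was not tested. Summed FPKM was 24.1 and 2.13 for 7 keratinocyte markers, of which 6 were expressed, and 6.17 and 1.95 for 6 endothelial markers, of which 1 was. Of the 6 expressed keratinocyte markers, 5 were lower on both scales and 0 higher, against 28.2% and 10.0% of expressed entries lower. The 1 expressed endothelial marker was lower on the authors' scaling only. Summed FPKM was 1020 and 1184 for the 6 macrophage markers found, all expressed. *Lyz2* alone gave 880 and 951 of the macrophage sums, and 40% of its windows have copies elsewhere in the genome. On the authors' scaling *Cd14*, at 14.8 and 111, was the 1 macrophage marker that was higher, and 0 were lower. After adjustment 2 were higher, *Cd14* and *Csf1r*, and 0 lower.

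The immunoprecipitations asked where CEBPB and ATF4 were bound near these genes. Within 50 kb of the 10 loci lay 34 listed peaks, namely 10 for CEBPB without thapsigargin, 6 for CEBPB with it and 18 for ATF4. CEBPB peaks of untreated cells lay near 7 of the 10 genes, against 44.1% of expressed and 34.0% of all entries. CEBPB peaks of treated cells lay near 6, against 43.6% and 37.1%, and ATF4 peaks near 8, against 81.0% and 63.0%, so the share for ATF4 was close to that of expressed genes at large. *Myl9* had none in any of the 3 lists. For 16 of the 34 peaks the nearest start of a coding gene was that of the member, and most other peaks lay at the starts of neighbouring genes. Peaks were called in 1 library each, and scores differ in scale between lists, so only ranks within a list are given.

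**Figure D4:**
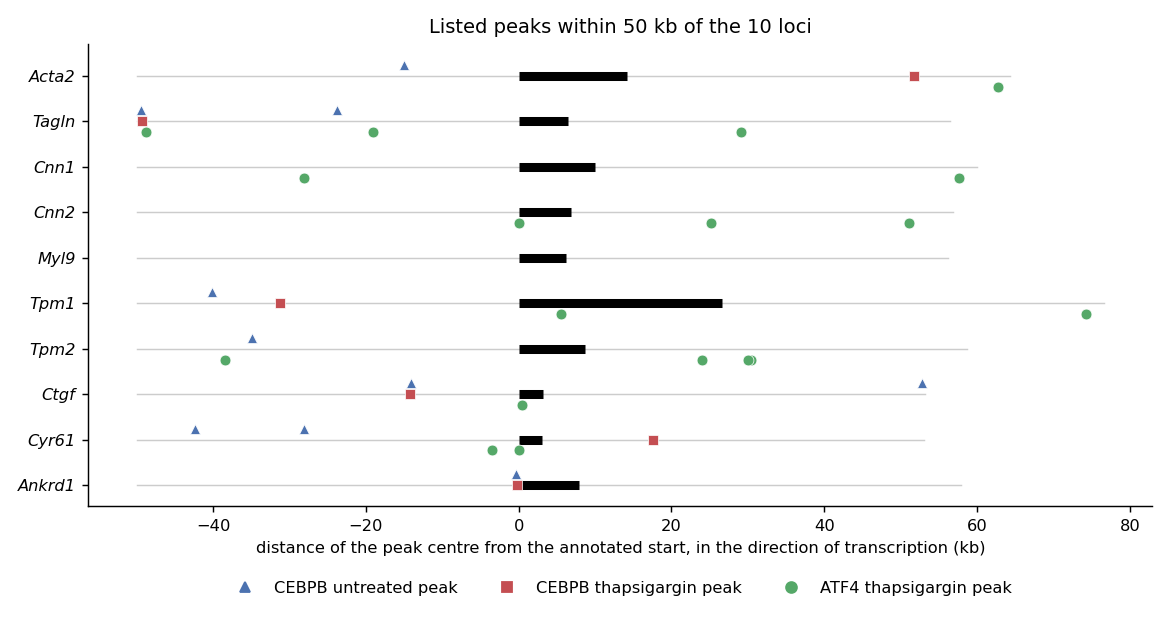
Centres of the 34 listed peaks within 50 kb of the 10 loci, by distance from the annotated start in the direction of transcription (kb), with the listed loci as black bars. Only Ankrd1 has CEBPB peaks at its start, Cnn2, Ctgf and Cyr61 have ATF4 peaks there, and Myl9 has none.

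Only *Ankrd1* had a CEBPB peak within 1 kb of its start, in both states. Such peaks stood at 4.88% of expressed entries in untreated and 3.89% in treated cells. The peak of untreated cells (chr19:36194429-36194890) lay 95 bp upstream of the locus and ranked 4348th of 7317 by score. The peak of treated cells (chr19:36194474-36194688) lay inside it and ranked 848th of 7861. *Ankrd1* had no ATF4 peak within 50 kb.

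*Ctgf* had peaks of all 3 lists. A CEBPB peak 13.8 kb upstream (chr10:24300746-24301479), in an intron of Gm15270, ranked 581st in the list of untreated cells. The overlapping peak of treated cells (chr10:24300986-24301200) ranked 635th. An ATF4 peak (chr10:24315413-24315848), with its centre 382 bp downstream of the start, ranked 236th of 10109 and was the highest in rank of the 34 peaks. A further CEBPB peak of untreated cells lay 49.3 kb downstream of the locus, in an intron of *Enpp1*.

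*Cyr61* had an ATF4 peak over its start (chr3:145312710-145312970), ranked 5397th, and another 3.34 kb upstream (chr3:145316292-145316581), ranked 9311th. Its 3 CEBPB peaks lay 14.5 to 42.1 kb away and in the lower part of their lists, at ranks 6088 and 6610 of the untreated and 7563 of the treated list. *Cnn2* had an ATF4 peak over its start (chr10:79451212-79451579), ranked 8337th. ATF4 peaks within 1 kb of the start were thus found for 3 of the 10 genes, *Ctgf*, *Cyr61* and *Cnn2*, against 47.7% of expressed entries.

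The other contractile genes had no listed peak at their first start. In *Tpm1*, an ATF4 peak lay inside the gene (chr9:66891582-66891818), 5513 bp downstream of the first start, where 5 annotated transcripts of *Tpm1* begin, and ranked 1631st. The CEBPB peak nearest to *Acta2* (chr19:34344585-34345148) lay 14.8 kb upstream in untreated cells and ranked 4568th. A CEBPB site found in both states lay 49.1 and 49.2 kb from the *Tagln* locus, with ranks of 1088 in untreated and 1204 in treated cells. Its nearest start was that of *Pafah1b2*, 543 and 514 bp from the peak centres, and nothing here ties it to *Tagln* beyond the distance rule. The 2 ATF4 peaks of *Cnn1* and 4 of *Tpm2* lay nearest to starts of other genes.

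The CEBPB sites listed in both states, and the upstream ATF4 site of *Cyr61*, are printed because CEBPB was listed in both states at only these 3 sites near the set, and because the ATF4 site holds a CArG box outside any transcript. Each is shown on the strand of the member, with all word matches in capitals. The site printed under *Tagln* lies nearest to the start of *Pafah1b2*.
Ankrd1, CEBPB peak of treated cells (chr19:36194474-36194688): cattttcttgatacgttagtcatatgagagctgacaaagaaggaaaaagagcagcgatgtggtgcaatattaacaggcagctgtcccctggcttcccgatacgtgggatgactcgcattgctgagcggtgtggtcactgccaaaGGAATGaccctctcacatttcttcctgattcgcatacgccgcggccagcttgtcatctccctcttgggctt
Ctgf, CEBPB peak of treated cells (chr10:24300986-24301200): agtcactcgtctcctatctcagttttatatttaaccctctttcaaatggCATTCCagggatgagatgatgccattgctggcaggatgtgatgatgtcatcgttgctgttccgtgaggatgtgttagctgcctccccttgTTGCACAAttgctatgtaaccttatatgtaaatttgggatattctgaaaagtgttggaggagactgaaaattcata
Tagln, CEBPB peak of treated cells (chr9:45793383-45793553): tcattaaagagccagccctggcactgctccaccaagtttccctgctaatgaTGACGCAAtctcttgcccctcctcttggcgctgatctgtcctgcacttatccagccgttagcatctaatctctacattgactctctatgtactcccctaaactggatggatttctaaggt
Cyr61, ATF4 peak of treated cells (chr3:145316292-145316581): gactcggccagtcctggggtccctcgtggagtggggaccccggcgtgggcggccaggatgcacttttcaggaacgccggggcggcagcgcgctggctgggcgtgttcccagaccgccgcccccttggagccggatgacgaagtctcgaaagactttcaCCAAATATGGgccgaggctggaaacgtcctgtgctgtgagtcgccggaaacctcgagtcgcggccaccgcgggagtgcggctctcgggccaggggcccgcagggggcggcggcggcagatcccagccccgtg

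The *Ctgf* site held the C/EBP word TTGCACAA, a match to TTGCNNAA, which 21.1% of the list's peaks hold in a window of the same length. It also held 1 match to GGAATG, as CATTCC, against 14.98% of the list. TTGCACAA lies in the wider *Ctgf* peak of untreated cells as well, where 71.5% of that list hold TTGCNNAA at its length. The site printed under *Tagln*, near the start of *Pafah1b2*, held TGACGCAA, a match to TGANGCAA, against 12.4% of windows of that length. The wider peak of untreated cells there holds it as well, against 20.5% of that list at its length. The *Ankrd1* site held none of the C/EBP or ATF words and 1 match to GGAATG, which is the upstream one of the 2 in its promoter. Only 21.1% of the treated list hold TTGCNNAA at that length, so its absence there is usual. The wider *Ankrd1* peak of untreated cells lacked TTGCNNAA too, against 67.7% of that list holding it at its length. The *Cyr61* site held 1 strict CArG box, against 0.337% of ATF4 peaks in windows of that length, and the ATF4 peak over the start of *Cnn2* held another, against 0.475%. None of the 18 ATF4 peaks held TGATGCAA, TGANGCAA, CGATGCAA or TGACGTCA, words that at these lengths are also rare in the whole list, from 0.0990% of peaks for CGATGCAA to at most 3.55% for TGANGCAA.

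Methylation of untreated cells was read at the ends of the loci, as the mean percent of CpG cytosines within 500 bp, with no number of reads given. The mean was under 20% at the starts of 8 of the 10 genes, against 87.2% of expressed and 62.5% of all entries. The starts of *Acta2* and *Ankrd1* were the exceptions, and 8.03% of expressed entries have starts of 20% to 60%. At the far ends, 0 of the 10 genes had a mean under 20%, against 2.89% of expressed and 3.48% of all entries. The far ends ranged from 57.5% in *Acta2* to 87.5% in *Cnn1*.

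The starts of the YAP targets *Cyr61* and *Ctgf* and of the contractile genes *Cnn2* and *Tpm1* were nearly unmethylated, with means of 0.236%, 1.35%, 0.993% and 1.39% over 123, 95, 146 and 137 cytosines. *Tpm2* had 6.34% and *Myl9* 6.68%. The *Tpm2* window was centred on the listed locus end, downstream of the annotated start. Its 500-base stretches before and after that end had means of 1.67% and 15.4%. *Cnn1* had 9.16% over 31 cytosines and *Tagln* 17.7% over 52, with single cytosines up to 50% and 82%. For *Tagln*, the most abundant of the set after treatment, the mean was 12.8% within 250 bp of the start and 30.7% within 1000 bp. Its higher single values thus lay away from the start itself. The means of its 500-base stretches before and after the start were 21.5% and 13.2%.

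*Acta2* had 27.7% over 35 cytosines at its start, with single values from 0% to 68%, at an FPKM of 1124. Of 657 entries at FPKM 100 or more in either library, 77 had starts of 20% or more, or 11.7%. Its lowest stretch lay inside the gene, with 14.1% over 16 cytosines from 500 to 1000 bp downstream of the start, against 31.4% in the 500 bp upstream and 23.3% in the first 500 bp of the gene. *Ankrd1* had 46.6% over 32 cytosines, from 25% to 96%. Its lowest stretch was the 500 bp upstream of the start, with 36.3% over 24 cytosines. The next 500 bp on either side had 78.3% and 77.5%.

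**Figure D5:**
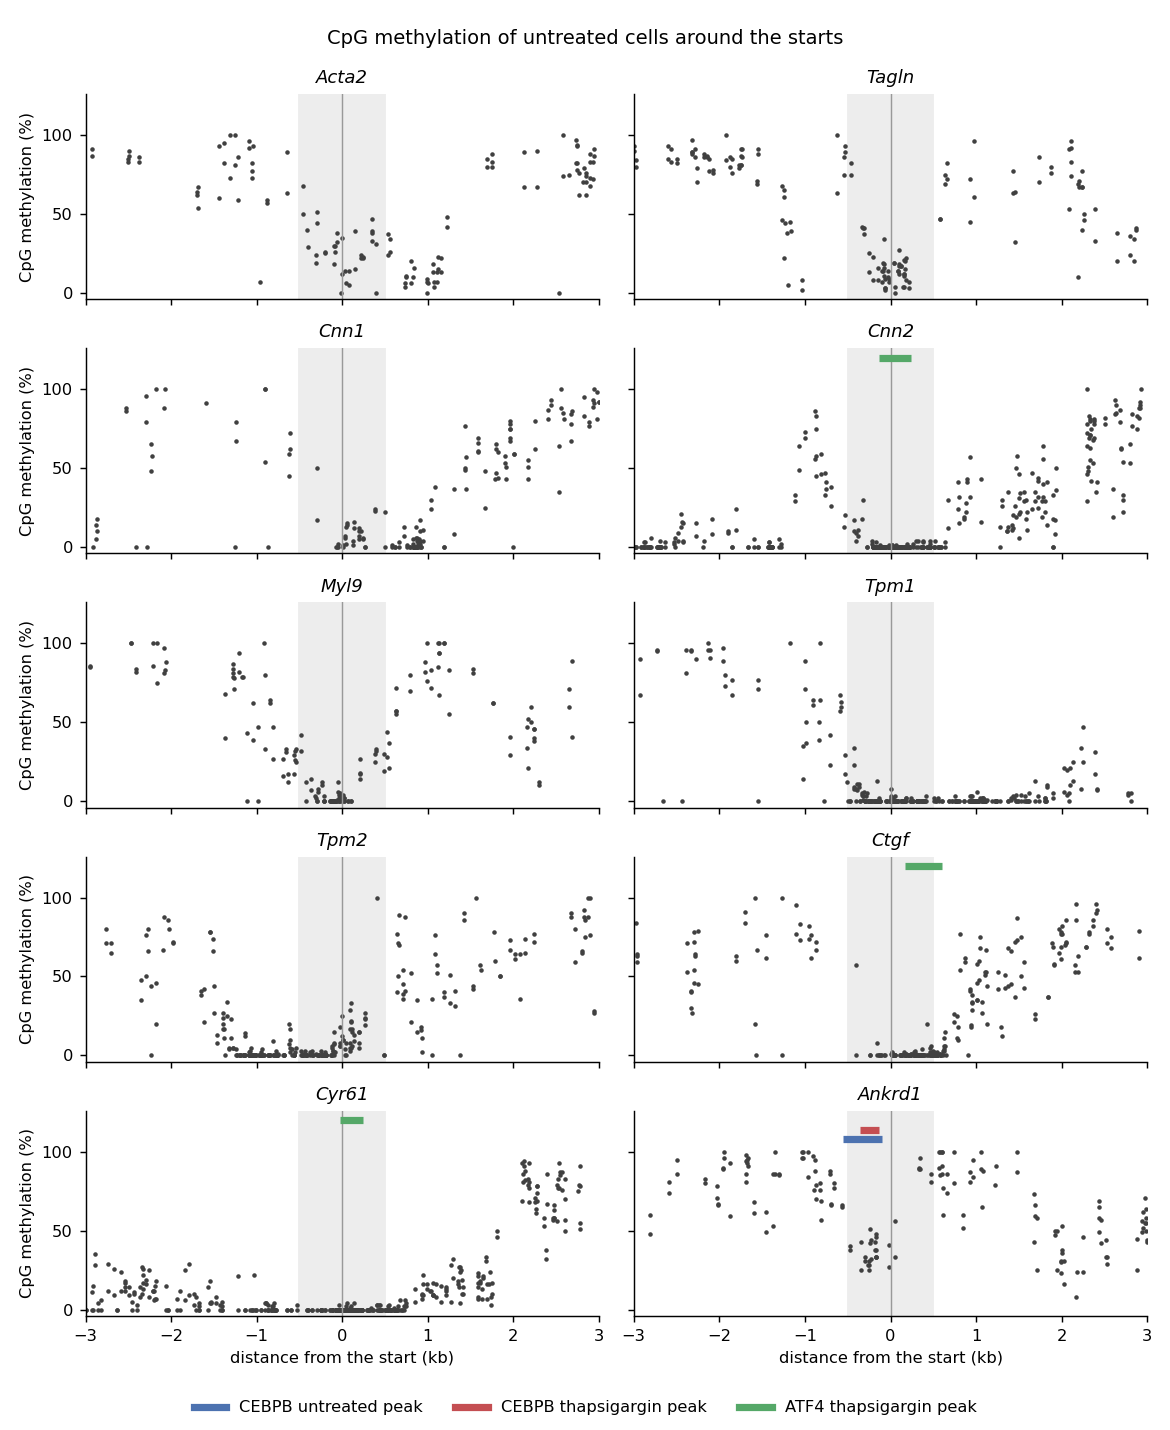
CpG methylation (percent per cytosine, untreated cells) within 3 kb of the start of each of the 10 genes, with the window of 500 bp on each side shaded and listed peaks as bars above the points. The starts of Cyr61, Ctgf, Cnn2 and Tpm1 lie near 0, while those of Acta2 and Ankrd1 hold intermediate values, and the CEBPB peaks of Ankrd1 lie over its dip.

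The length of the low stretch differed as well. It was measured from the start to the first 3 cytosines in a row at 50% or more, and summed over both sides. *Tpm1* had the longest, 7703 bp, of which 7124 bp lay downstream and reach past the inner starts and the ATF4 peak over them. *Cyr61* had 5933 bp, with 4120 bp upstream, which take in its upstream ATF4 peak. *Cnn2* had 3168 bp, *Cnn1* 2345, *Tpm2* 2163, *Acta2* 2153, *Ctgf* 1682, *Myl9* 1467 and *Tagln* 1100. *Ankrd1* had the shortest, 895 bp. Away from their ends the loci had means of 26.5% in *Cyr61* to 71.1% in *Tagln*, and the flanks out to 50 kb had 46.8% at *Cnn1* to 75.3% at *Myl9*.

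The peaks near the set differed by factor. Of the 18 ATF4 peaks, 17 had a mean under 20%, and the other, in a coding exon of *Abca7* 18.2 kb from *Cnn2*, had 65.3%. In the whole ATF4 list 82.3% of the peaks with a CpG were under 20%. Of the 10 CEBPB peaks of untreated cells, 2 were under 20%, 5 lay from 20% to 50% and 3 were at 50% or more, and of the 6 of treated cells these numbers were 1, 2 and 3. The whole CEBPB lists had 21.6% of peaks under 20%, 45.7% from 20% to 50% and 32.7% at 50% or more in untreated cells. In treated cells these shares were 19.1%, 21.8% and 59.1%. The *Ankrd1* peaks had 36.5% over 22 cytosines and 36.3% over 20, with single values from 25% to 51%. The *Ctgf* peak of treated cells had 23.8% over 6 cytosines, from 9% to 45%, and the wider peak of untreated cells 48.2% over 10. The site printed under *Tagln*, near the start of *Pafah1b2*, had 0.500% over 6 and 8.69% over 16 cytosines. The CEBPB peak upstream of *Acta2* had 68.6% over 19, from 0% to 97%. Both bisulfite libraries were of untreated cells, so these values show the DNA without treatment.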

How the data were processed

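RNA, immunoprecipitation and bisulfite libraries of mouse dermal fibroblasts were grouped by their labels. Per the submitters' processing notes, CASAVA 1.8.2 and Bowtie were used for RNA, CASAVA 1.7, BWA and SAMtools for ChIP, and CASAVA 1.8 and Novoalign for bisulfite libraries, on mm9. The authors deposited FPKM per gene with confidence bounds, a score per peak, and a percent methylated per CpG cytosine pooled over both bisulfite libraries. The sources used here name neither the program behind the FPKM values nor the control of the peak calls, and give no bisulfite coverage.

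Changes were differences of log2(FPKM + 1). Fragment numbers were derived from the bounds as 2 standard errors of a Poisson count, and came out whole within 0.05 for 73.7% of 4219 and 79.3% of 4363 entries with few fragments. For junction adjustment, genes reaching FPKM 5 in a library were put into 50 bins. Strand, annotated starts and junctions came from GENCODE vM1, which matched 21748 entries. Motif windows and distances of peak centres used the annotated start. Methylation at starts and counts of peaks within 1 kb of a start used the listed locus end instead. The 2 positions can differ, as in *Tpm2*, with its listed end at 43536260 and its annotated start at 43536637. Copies were sought with minimap2 2.31-r1302 in 100-bp windows every 50 bp with at most 3 mismatches. Loci are given as listed. Distances ran from the listed locus to the nearest base of a peak. Entries marked heterozygous in the methylation file, 68086 of 38605414, were left out. Motifs were searched with pysam 0.24.0 on both strands, and TGANGCAA was added after the sequences were seen. Some results on a promoter sequence and a listed gene are not reported here. Calculations were tested on simulated data. The 10 genes, the lists and the rules for named genes (of each list, the most abundant by mean FPKM and the 3 with the greatest change) were chosen with earlier results of these data known.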

Additional observations from a re-analysis of the deposited data

How the results depend on the processing

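No paired analysis was possible because each RNA and immunoprecipitation group has 1 library and the bisulfite values are pooled. The count of 2 higher genes held with pseudocounts of 0.1 and 0.01, without the filter, centred on entries reaching FPKM 5 in each library and after junction adjustment, and was 3, with *Tagln* at 1.08, centred on all expressed entries. The count of 2 lower genes became 0 under both centrings, which subtract medians of −0.40 and −0.52, and after junction adjustment. *Acta2* then stood at −0.85, −0.72 and −0.53. *Cnn2* turned to 0.01 centred on all expressed entries. Within 10 kb, 1 gene had a CEBPB peak of untreated cells, 1 of treated cells and 4 an ATF4 peak. Among peaks with scores above the list's median, 3, 3 and 7 of the genes had a peak within 50 kb. Within 100 kb the numbers were 9, 7 and 9. With 1000 bp on each side, 6 starts were under 20%, with *Tagln* at 30.7% and *Myl9* at 20.5%, and with 250 bp 8. The count of 20 peaks under 20% was 20 or 21 in all 3 alternatives. Depth limits *Ankrd1* most, and the unknown bisulfite coverage limits single cytosines and peaks with few of them.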

Other observations

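Genes of TGF-beta signalling, the main inducer of *Acta2* and *Ctgf* in fibroblasts, included higher and lower ones. Of 17 genes, all expressed, 3 were higher and 4 lower, with a median log2 change of −0.36. After junction adjustment the median was 0.36, with 5 higher and 2 lower. Among expressed entries 6.02% were higher and 28.2% lower, or 12.0% and 10.0% after adjustment, with medians of −0.52 and 0.02. The share of higher genes in the list was thus above that of expressed entries on both scales. *Smad6*, an inhibitor of the pathway, stood at FPKM 5.23 untreated and 18.1 treated, a log2 change of 1.61 (adjusted 1.77). *Tgfbr3*, a co-receptor, stood at 58.1 and 13.1, a log2 change of −2.07 (adjusted −1.71). *Postn*, the matrix protein periostin and the most abundant of the list in untreated cells, stood at 1891 and 1058, a log2 change of −0.84 (adjusted 0.56), so its sign depended on the scale.

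The entries nearest to *Ankrd1* over the 2 libraries, by distance in log2(FPKM + 1), were *Ficd* at 3.60 and 10.4 and *Cybb* at 3.72 and 10.2. Those nearest to *Acta2* were *Fth1* at 1078 and 489 and *Eef2* at 1039 and 503. With 2 libraries, likeness of this kind says only that levels were close.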
